A study of Mus musculus with 6 samples.

Results

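The early response of P19 chromatin to retinoic acid was examined as the contacts after 6 h of treatment (T6) against those of untreated cells (T0). P19 is a mouse embryonal carcinoma line, grown as a monolayer on gelatine in medium with fetal and delipidated calf serum. T6 cells had received all-trans retinoic acid (ATRA) at 1e-06 M, and T0 cells were non-differentiated cells without it. Hi-C, which joins DNA ends found near each other in crosslinked nuclei and sequences the junctions, gave 2 libraries per group, so 4 of the 6 libraries of the series enter here. No untreated culture of the 6 h time is among the samples, so ATRA and 6 h of culture cannot be told apart. The members were the pairs of 5 kb bins that the authors listed as significant at T0 or T6 on the 19 autosomes, 2,609,792 of the 3,654,014 pairs of the table. Of these, 733,608 had a count above 0 in all 4 libraries and were used for contact strength. The Hi-C counts hold no expression values, so the cell type label could not be set against marker genes.

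Retinoic acid enters the nucleus and binds receptors of the RAR family, which sit on DNA as partners of RXR and switch from repression to activation when the ligand arrives. Direct target genes such as Cyp26a1 and Rarb respond within hours, pluripotency genes are turned off later, and P19 cells go on to a neural or other fate depending on the culture. Chromatin contacts bring enhancers and promoters of such genes together, and in a Hi-C list a bin with many listed partners acts as an anchor of the local contact map.

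A direct repeat that RAR and RXR bind is present in the promoters of both classic early targets. They are shown because their loci are followed through the results. The sequences are from RefSeq on GRCm38.p6 (250 bases before to 50 after the gene start, along the gene's strand), a later build than the mm9 of the contact files, and no coordinate was converted. Capitals mark 2 copies of GTTCA with 6 bases between them (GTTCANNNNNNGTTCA, searched on both strands), a pattern held by 25 of 32,851 mouse promoters of that length (0.0761%).
Cyp26a1 (chr19:37697558-37697857, plus strand, pattern on the opposite strand with its first base at -32): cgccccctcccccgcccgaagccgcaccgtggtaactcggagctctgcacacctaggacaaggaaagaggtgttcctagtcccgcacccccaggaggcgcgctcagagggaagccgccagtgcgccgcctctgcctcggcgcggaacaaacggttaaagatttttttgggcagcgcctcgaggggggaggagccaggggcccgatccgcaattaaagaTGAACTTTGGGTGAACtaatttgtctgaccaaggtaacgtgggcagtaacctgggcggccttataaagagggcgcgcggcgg
Rarb (chr14:16575427-16575726, minus strand, pattern on the gene's strand with its first base at -52): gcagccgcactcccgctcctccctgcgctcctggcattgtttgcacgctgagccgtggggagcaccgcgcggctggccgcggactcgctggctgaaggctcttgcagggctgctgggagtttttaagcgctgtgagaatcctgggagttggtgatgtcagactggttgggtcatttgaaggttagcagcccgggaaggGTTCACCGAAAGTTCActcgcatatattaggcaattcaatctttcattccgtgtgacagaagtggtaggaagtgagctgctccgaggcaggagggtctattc
A match is a description of these letters, and binding was not measured here.

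The listed autosomal counts summed to 47,648,811 and 28,307,729 read pairs at T0 and 38,449,123 and 21,935,326 at T6, for replicates 1 and 2. Listed pairs had median counts of 14 and 9 at T0 and 13 and 8 at T6, so a single pair rests on few reads. The lowest listed count at 5 kb was 29 and 25 at T0 and 30 and 24 at T6. A count of 0 means that a pair was not listed at that time, not that contact was absent. Nothing in the labels ties replicates to separate cultures, and the spread between them may therefore be technical. All levels are relative to the library's own sum, and a change of contact in the whole genome would not show. Counts were not corrected for how well a bin is covered, and a bin that is covered better or worse cannot be told apart from one whose contacts differ.

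Most pairs of neighbouring bins were listed at both times, and most longer pairs were listed once. T0 listed 1,812,521 autosomal pairs and T6 1,530,879, a ratio of 0.845. The 733,608 shared pairs were 40.5% of the T0 list and 47.9% of the T6 list, with a median distance of 20 kb. The 1,078,913 pairs listed only at T0 lay a median of 145.0 kb apart, and the 797,271 listed only at T6 lay 175 kb apart. Of the T0 pairs at 5 to under 20 kb, 75.4% were also listed at T6, against 41.5% at 20 to under 50 kb, 20.7% at 250 to under 500 kb and 7.94% at 1 to under 2 Mb. At 2 to 10 Mb the share was 18.99%. The T6 list was shorter in each of the 8 distance classes, with T6 over T0 ratios from 0.798 at 20 to under 50 kb to 0.889 at 2 to 10 Mb, and on each of the 19 autosomes, with ratios from 0.837 to 0.868. Lists are made per time point and have no replicate error.

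A pair far above the listing limit was rarely missing from the other list. Among T0 pairs from 20 to under 500 kb, 24.9% of those under 1.5 times the lowest listed count for their distance were listed again at T6, and 94.0% of those at 3 times or more. In the other direction, 31.8% and 95.1% of T6 pairs were in the T0 list. Among pairs of that strength, 676 were listed only at T0 and 442 only at T6. Chromosome 14 held more of them than any other autosome, 83 and 76. The strongest T0-only pair, on chromosome 19 with bin centres at 39,547,500 and 39,667,500, had T0 counts of 41 and 29. The strongest T6-only pair, on chromosome 5 with bin centres at 14,982,500 and 15,122,500, had T6 counts of 37 and 419, so replicate 2 held most of it. These pairs were named for their values.

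**Figure D1:**
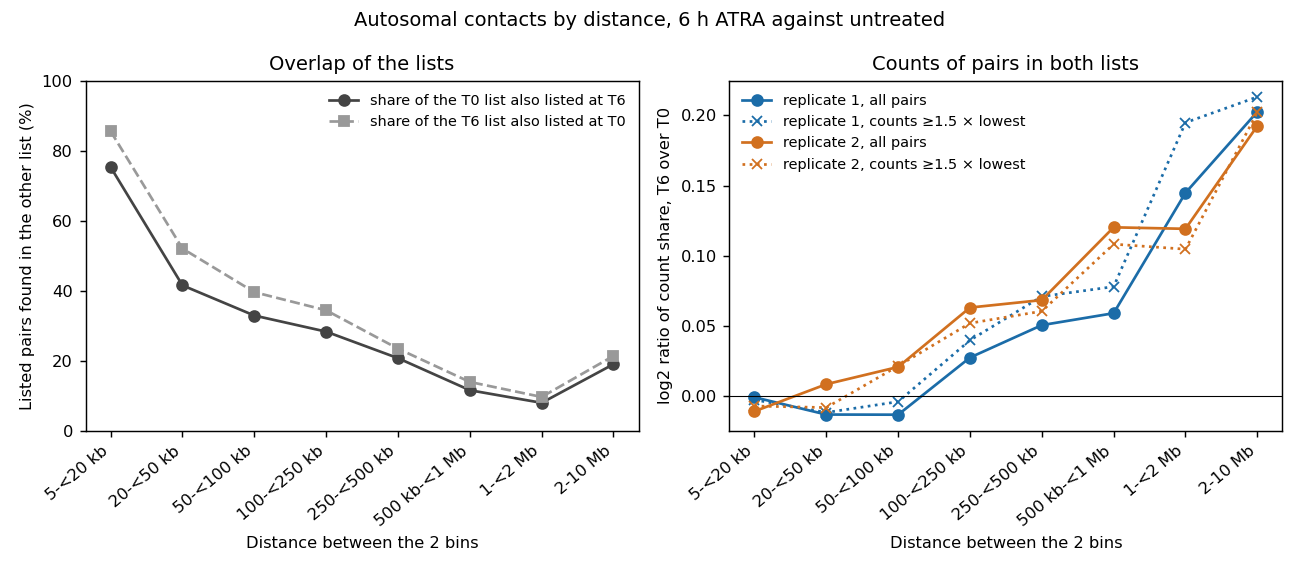
Left, the share of each list that is also in the other list (%), by the distance between the bins. Right, the log2 ratio of T6 over T0 in the share of counts held by each distance class, for each replicate, over pairs listed at both times and over those of at least 1.5 times the lowest listed count. The overlap falls from 75.4% to 7.94% of the T0 list up to 2 Mb, and both replicates lie above 0 from 100 kb on.

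Among pairs listed at both times, those from 100 kb on held a slightly larger share of the counts at 6 h in both replicates. At 100 to under 250 kb the share was 3.89% and 4.73% at T0 and 3.96% and 4.94% at T6 (log2 0.028 and 0.063). At 250 to under 500 kb it was 1.55% and 1.91% at T0 and 1.60% and 2.00% at T6 (log2 0.051 and 0.069). At 500 kb to under 1 Mb the log2 ratio was 0.059 and 0.12, at 1 to under 2 Mb 0.14 and 0.12, and at 2 to 10 Mb 0.20 and 0.19. In each class the 2 replicates of a time differed by more than the 2 times did. The ratio was above 0 in both replicates on 18, 19, 18, 16 and 15 of the 19 autosomes for these 5 classes in order of distance. Among pairs of at least 1.5 times the lowest listed count, this held on 17, 16, 12 and 11 of 19, and on 11 of 17 at 2 to 10 Mb. There 2 autosomes at 100 to under 250 kb and 3 at 1 to under 2 Mb were lower in both replicates. The autosomes come from the same 4 libraries and are not replicates. Pairs of 5 to under 20 kb, which held 79.0% and 76.5% of the T0 count, gave log2 ratios of -0.00063 and -0.011. With 2 libraries against 2, an exact two-sided permutation test cannot go below p = 0.333. The lowest listed count was the same at both times, 4 and 3 at 500 kb and 3 and 3 at 1000 and 2000 kb. The sums of the pairs listed at both times were 32,047,631 and 18,636,945 at T0 and 28,994,522 and 16,019,013 at T6. A pair that stays at the lowest count thus has a larger share at T6 without a higher count. How much of the larger share of long pairs comes from this was not tested.

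The count share of all pairs from 500 kb on was 0.579% and 1.21% at T0 and 0.618% and 1.34% at T6. The difference within replicate number was 0.083 ± 0.063 percentage points (SD, n = 2). Their share of the list moved the other way, from 11.18% to 11.02%. That list difference of -0.168 percentage points was 0.182 in a stricter list and 0.0011 among pairs at least 20 kb apart, so the list gave no stable direction. Of the 1828 pairs at 2 to 10 Mb, 536 lay between 84,000,001 and 88,000,000 of chromosome 1 and held 37.1% and 64.8% of the class count at T0. Without them the log2 ratio of that class was 0.22 and 0.091.

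No single pair passed the main test for a change in count at 6 h, which left out replicate number. edgeR's quasi-likelihood test (Benjamini-Hochberg, 0.05) called 0 of 601,587 pairs (0.0%), although 17,233 had an unadjusted p under 0.05. DESeq2 also called 0 pairs, and 1073 had an unadjusted p under 0.05. With replicate number as a block, edgeR called 1 pair. The log2 ratio was above 1 in both replicates in 658 pairs (0.109%) and below -1 in both in 485 (0.0806%). The pair with the lowest p among those higher at T6 joined 2 adjoining bins of chromosome 6, whose centres are 122,827,500 and 122,832,500. It held 46 and 26 read pairs at T0 and 181 and 82 at T6. Its log2 ratio was 2.01 (SE 0.23, edgeR adjusted p = 1.00). Among those lower at T6, that with bin centres 92,247,500 and 92,272,500 on chromosome 2 held 88 and 63 read pairs at T0 and 20 and 11 at T6. Its log2 ratio was -2.12 (SE 0.24, edgeR adjusted p = 1.00). The 12 pairs named by lowest p had log2 ratios between 1.67 and 2.01 or between -2.12 and -1.57. Several share a bin with windows described next.

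Counts summed over 50 kb windows gave 0 calls in edgeR among 47,068 windows (0.0%), with 509 at an unadjusted p under 0.05 (1.08%) and a lowest adjusted p of 0.466. DESeq2 called 29 of 47,160 windows (0.0615%), 15 higher and 14 lower. Most windows stayed close to 0: the log2 ratio was -0.14 and 0.17 at the 5th and 95th percentiles of all windows. In the window of chromosome 6 between 95,300,001 and 95,350,000, the counts per 1,000,000 read pairs (CPM) were 9.17 and 9.66 at T0 and 20.8 and 19.5 at T6. The CPM is over the sum of the windows, and below over the sum of the bins, where a pair counts once in each of its bins, or over the sum of the pairs for loci, so levels of windows, bins and loci are not on 1 scale. The log2 ratio of that window, 1.10 (SE 0.083, edgeR adjusted p = 0.466), was the highest of the 20 windows named by lowest p. The lowest of them, -0.74 (SE 0.056, edgeR adjusted p = 0.466), belonged to chromosome 3 between 84,100,001 and 84,150,000, where the T0 libraries stood at a CPM of 46.5 and 49.247 and the T6 libraries at 28.4 and 28.9. The T0 and T6 values of both windows do not overlap, which follows from their choice by lowest p and a shared sign. The share of all windows without overlap was not counted. All 20 named windows are among the DESeq2 calls, which rest on the same counts and are not separate evidence.

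In most of these windows the difference lay largely in a single 5 kb bin. In 19 of the 20 named windows, the 5 pairs with the largest difference all had 1 bin in common, and in the other, on chromosome 1 from 16,100,001, 4 of the 5 did. That bin was found from the largest differences in the same counts, so a smaller difference without it follows in part from the choice. With the pairs of that bin left out, the 10 higher windows, at log2 0.41 to 1.10 in full, were at -0.0012 to 0.18. The 10 lower windows, at -0.74 to -0.35 in full, were at -0.19 to 0.028, as means of the replicates. The window of chromosome 1 from 16,100,001 was the exception, since it was at 0.058 and -0.344 without the bin and at -0.30 and -0.55 in full, so replicate 2 kept most of its difference. The test was therefore repeated on counts summed per 5 kb bin, a step chosen after the windows had been seen. edgeR called 0 of 312,629 bins (0.0%), with 5618 at an unadjusted p under 0.05 and a lowest adjusted p of 0.296. DESeq2 called 68 of 304,578 (0.0223%), 34 higher and 34 lower. With replicate number as a block, edgeR called 90 bins, 52 higher and 38 lower. The 20 bins described next, 10 in each direction, have the lowest edgeR p. All 20 are among the DESeq2 calls, and 15 lie in the named windows. They were chosen by this test and by a shared sign, so their sign and the gap between the times follow from the choice. DESeq2 and the block fit use the same counts, so a call there is not separate evidence.

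The bins with higher counts at T6 had few listed partners at T0 and many at T6. Listing rests on the same counts, so the numbers of partners here and below are not separate evidence. The bin of chromosome 6 between 95,335,001 and 95,340,000 had a CPM of 3.49 and 3.51 at T0 and 10.6 and 9.53 at T6 (log2 1.53, SE 0.10, edgeR adjusted p = 0.296), a 2.89-fold difference. It was listed with 5 partners at T0 and 64 at T6, and all 5 shared pairs were higher in both replicates. The bin of chromosome 10 between 18,535,001 and 18,540,000 had 6.25 and 5.92 at T0 and 18.3 and 17.1 at T6 (log2 1.54, SE 0.11, edgeR adjusted p = 0.296). Its listed partners numbered 11 and 56, and its shared pairs rested on both sides, 7 to the left and 4 to the right. The bin of chromosome 1 between 67,170,001 and 67,175,000 had 3.15 and 3.41 at T0 and 9.24 and 8.93 at T6 (log2 1.48, SE 0.097, edgeR adjusted p = 0.296), with 5 and 44 partners. In all 3 bins both T6 libraries were above both T0 libraries, and the replicates lay close together, as the choice by lowest p favours.

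Chromosome 6 held 2 further bins of this kind within 5 Mb of the first. From 96,985,001 the CPM was 4.43 and 4.31 at T0 and 11.7 and 11.03 at T6, with 9 and 49 partners. From 100,320,001 it was 4.80 and 4.86 at T0 and 11.8 and 11.5 at T6, with 7 and 65 partners. The other 5 higher bins were on chromosome 1, from 34,190,001, 92,130,001, 129,680,001, 132,475,001 and 161,390,001. Their log2 ratios were 1.31, 1.29, 1.22, 1.22 and 1.28. Over the 10 bins, 95 of the 97 pairs listed at both times were higher in both replicates. The bins were chosen by the summed counts of these pairs, so this largely follows from the choice.

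The bins with lower counts had many listed partners before treatment and few at T6. The bin of chromosome 3 between 84,105,001 and 84,110,000, at the locus of Trim2, a ubiquitin ligase of neurons, had a CPM of 16.7 and 17.8 at T0 and 5.80 and 6.01 at T6 (log2 -1.55, SE 0.11, edgeR adjusted p = 0.296). It was 2.92-fold lower, and its listed partners numbered 87 and 21. All 20 shared pairs were lower in both replicates and all 20 partners lay to the left, up to 530 kb away. The strongest pair seen in the T0 list alone joined it to the next bin on the right, with counts of 117 and 62. The contacts at 20 to under 100 kb gave log2 ratios of -1.61 and -1.63, and those from 100 kb gave -1.36 and -1.45.

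The bin of chromosome 2 between 92,270,001 and 92,275,000, at the locus of Cry2, a repressor of the circadian clock, had a CPM of 15.5 and 15.8 at T0 and 5.56 and 5.47 at T6 (log2 -1.51, SE 0.099, edgeR adjusted p = 0.296). Its partners numbered 91 and 11, and all 11 shared pairs were lower in both replicates. The bin of chromosome 19 between 46,530,001 and 46,535,000, at the locus of Sufu, an inhibitor of Hedgehog signalling, had 14.8 and 15.03 at T0 and 5.58 and 5.47 at T6 (log2 -1.43, SE 0.098, edgeR adjusted p = 0.296). Its partners numbered 64 and 11. Here the left neighbour was lower too (log2 -0.38 and -0.28), and the rest of the window was at -0.28 and -0.43. The expression of these genes was not measured in these libraries.

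Of these 20 bins, the largest ratio was that of a lower bin of chromosome 4 between 106,850,001 and 106,855,000, where the CPM was 11.6 and 12.9 at T0 and 3.51 and 4.12 at T6 (log2 -1.69, SE 0.12, edgeR adjusted p = 0.296). This bin was 3.24-fold lower with 117 listed partners at T0 and 12 at T6. The bins of chromosome 5 from 36,410,001 and of chromosome 2 from 28,250,001 had 89 and 8 and 118 and 21 partners at T0 and T6, at log2 -1.50 and -1.44. The other 4 lower bins were on chromosome 1, from 16,105,001, 66,905,001, 157,775,001 and 189,740,001, at log2 -1.39, -1.51, -1.35 and -1.24. Over the 10 bins, 113 of the 115 shared pairs were lower in both replicates. The pairs of a bin share that bin and are not independent of each other. Their summed counts also served to choose the bins, so the shared direction largely follows from the choice.

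**Figure D2:**
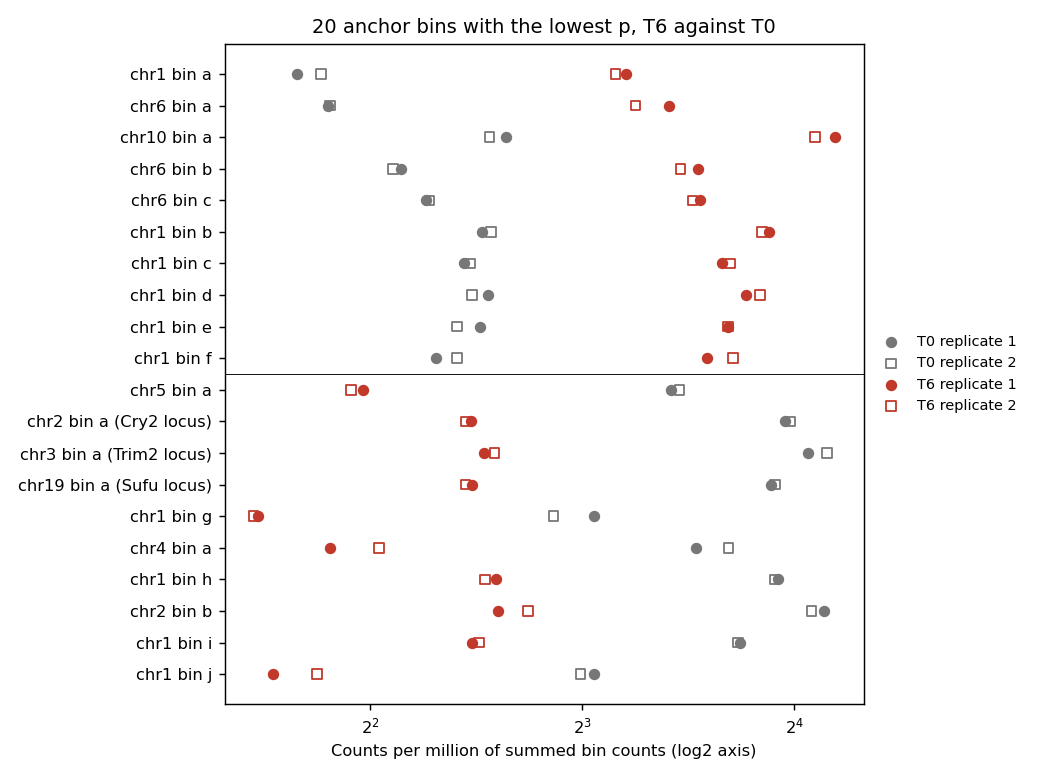
CPM of the 20 bins with the lowest edgeR p in each of the 4 libraries, on a log2 axis; grey marks T0 and red T6, filled circles replicate 1 and open squares replicate 2. Bins are lettered within their chromosome from the lowest p, the 10 higher bins above the line and the 10 lower bins under it. In all 20 the T0 and T6 values do not overlap, which follows from the choice by lowest p and a shared sign. The share of all bins without overlap was not counted.

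The bins beside these anchors did not show a difference of that size. The neighbours on either side, measured without their pairs to the anchor itself, could be read in 18 cases for the higher bins and 15 for the lower bins. Their mean log2 ratio over the replicates ran from -0.23 to 0.27 (median 0.058) beside the higher bins and from -0.33 to 0.20 (median -0.027) beside the lower bins. Single replicates spread more widely, from -1.10 to 0.92: the right neighbour of the chromosome 6 bin from 100,320,001, read from 1 pair, was at 0.92 and -1.10. Within an anchor, short and long pairs had the same sign, and the long pairs lay closer to 0. In the 13 anchors with shared pairs both under 20 kb and from 100 kb, the long pairs had the anchor's sign in both replicates, and their mean log2 ratio over the replicates was nearer 0 than that of the short pairs in all 13. The ratios ran from 1.17 to 1.56 under 20 kb and from 0.48 to 1.73 from 100 kb in the higher bins. In the lower bins they ran from -1.88 to -1.23 under 20 kb and from -1.44 to -0.31 from 100 kb. The widest gap was at Sufu, at -1.39 and -1.38 under 20 kb against -0.31 and -0.95 from 100 kb, where a single shared pair was left. Several of the long values rest on 1 or 2 pairs. Only pairs listed at both times enter, so a long pair whose count is too low at 1 time drops out. In the chromosome 2 bin from 28,250,001, the pair of 395 kb had 15 and 10 at T0 and 5 and 3 at T6. The lowest listed counts at T6 were 5 and 4 at 250 kb and 4 and 3 at 500 kb. That long pairs lay closer to 0 can therefore not be told apart from the listing limit.

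Over the genome, bins with a difference of about this size in both replicates were rare and uneven. Among 283,148 autosomal bins with a summed count of at least 200, the log2 ratio was above 1 in both replicates in 44 (0.0155%) and below -1 in both in 35 (0.0124%). It passed 1 in opposite directions in 33 bins. It passed 1 in replicate 1 alone, with replicate 2 within 0.3 of 0, in 609 bins, and in replicate 2 alone in 905. Differences of this size confined to 1 replicate number were thus more frequent than shared ones. Of the 79 shared bins, 62 had no adjoining bin among them. The 79 are not all anchors with many partners, because a pair counts once in each of its bins. Those of chromosome 16 had the same ratios, 3.542 and 1.046 in replicates 1 and 2, as bins that hold a single common pair would. Those of chromosome 12, at -1.002 and -1.708, and some of chromosomes 5 and 14 also had the same ratios.

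**Figure D3:**
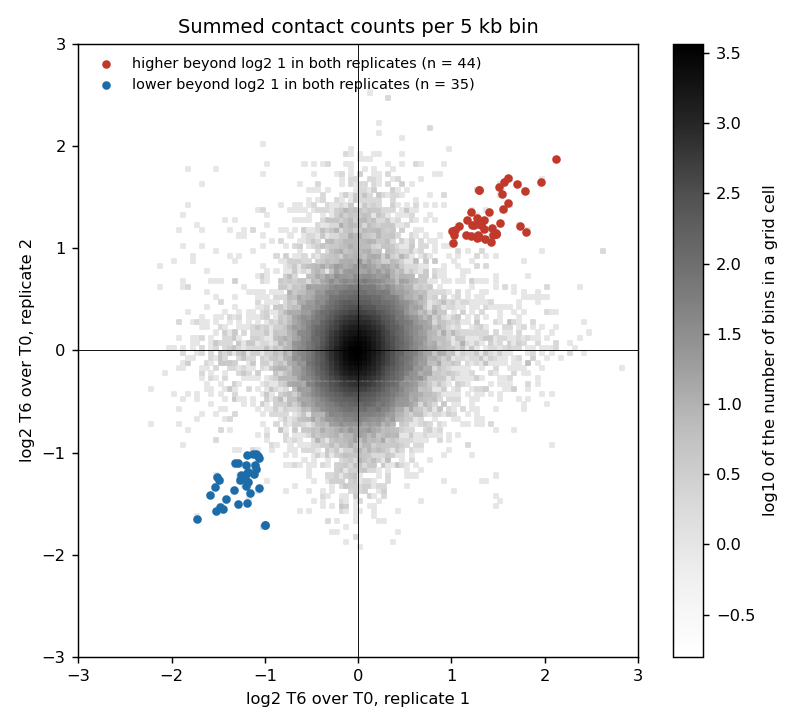
The log2 ratio of T6 over T0 of the summed count of each 5 kb bin in replicate 1 (x axis) and replicate 2 (y axis), for bins with a summed count of at least 200; grey shows the number of bins on a log10 scale. Red and blue mark the 44 bins above 1 and the 35 below -1 in both replicates, while the arms of the grey cross are bins that differ in 1 replicate.

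Chromosome 1 held 35 of the 79 bins, 14 higher and 21 lower, which is 0.152% of its 23,002 bins. Chromosome 6 held 10, of which 9 were higher (0.0573% of its bins), and 5 of the 10 lay between 90,000,001 and 100,000,000. The other autosomes had at most 0.027%, and chromosomes 8, 15, 17 and 18 had 0. Chromosome 1 also kept the largest part of its list: 47.5% of its T0 pairs were listed at T6, against 36.2% to 44.5% on the other autosomes. Its part of the autosomal count hardly differed, at 8.71% and 9.06% at T0 and 8.71% and 9.15% at T6. Chromosome 1 also came first for windows with a summed count of at least 1000. There 31 of 40,443 were above log2 0.3 in both replicates (0.0767%) and 25 below -0.3 (0.0618%), of which chromosome 1 held 12 and 8 (0.645% of its windows). The order below it differed: chromosome 19 had 4 (0.367%), ahead of chromosome 6 with 7 (0.286%).

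**Figure D4:**
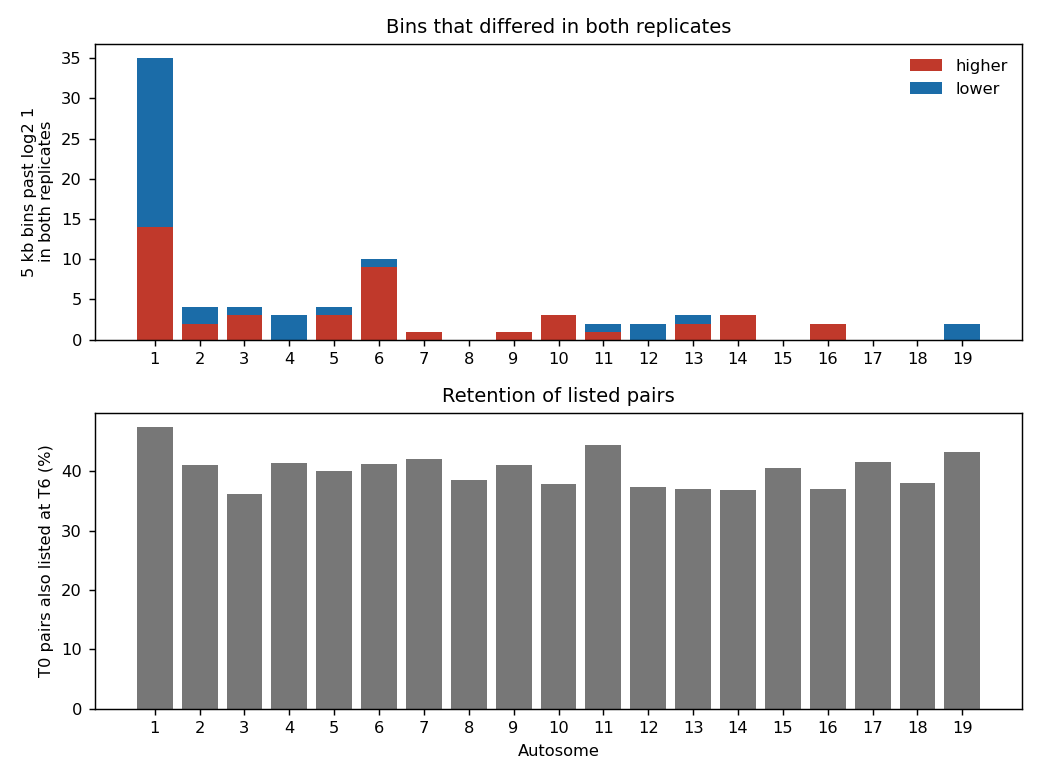
Top, the number of 5 kb bins per autosome whose log2 ratio of T6 over T0 was above 1 (red) or below -1 (blue) in both replicates. Bottom, the share of T0 pairs also listed at T6 (%). Chromosome 1 has the most bins, 35, and the highest share, 47.5%.

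Loci of the retinoic acid response and of early development differed little between the times. They are 31 intervals of mm9 under working names; they were set by hand, and no mm9 annotation was used to place a gene in them. By CPM over the pairs listed at both times, 13 of the 31 were higher and 12 lower at T6 in both replicates. Over all windows, 27.1% were higher and 26.4% lower in both, so these counts lie above the background in both directions, and the loci are wider than the windows. Of their 97 windows 3 had an unadjusted edgeR p under 0.05, where the background was 1.08%, and the lowest adjusted p was 1.00. In 29 of the 31 loci fewer pairs were listed at T6, as in the genome.

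At Cyp26a1 and Cyp26c1, the enzymes that degrade retinoic acid, the CPM was 112 and 114 at T0 and 122.1 and 121 at T6 (log2 0.12 and 0.089). Its window from 37,800,001 to 37,850,000 of chromosome 19 had a log2 ratio of 0.17 (SE 0.059, edgeR adjusted p = 1.00). At Rarb, a receptor that is itself a target of retinoic acid, the level was 93.4 and 98.78 at T0 and 88.2 and 87.896 at T6 (log2 -0.083 and -0.17). Its listed pairs numbered 300 and 181, and the window from 17,300,001 to 17,350,000 of chromosome 14 was at log2 -0.20 (SE 0.077, edgeR adjusted p = 1.00). The 2 loci whose promoters carry the repeat shown above thus had opposite signs. These windows and that of Gata6 are the 3 with an unadjusted p under 0.05, and none passed after adjustment.

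At Dhrs3, which turns retinal back into retinol, the level was 66.7 and 67.6 at T0 and 72.2 and 71.6 at T6. At Crabp2, which carries retinoic acid to the receptors, it was 107 and 95.2 at T0 and 96.7 and 90.02 at T6. Rara was higher and Rarg lower in both replicates, by log2 0.053 and 0.036 and by -0.073 and -0.097. Nrip1, a corepressor induced by retinoic acid, was at -0.036 and -0.032, and its listed pairs numbered 177 and 187. Meis1, a partner of Hox proteins, was at 0.33 in replicate 1 and 0.064 in replicate 2. Its bin from 18,825,001 had counts of 332 and 215 at T0 and 836 and 167 at T6, so only replicate 1 was higher. Meis2 was at -0.025 and -0.023. Of these 9 loci 4 were higher and 5 lower in both replicates.

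The 4 Hox clusters, which retinoic acid activates in order along the cluster, were close to 0. Hoxb was at log2 0.045 and 0.038, Hoxc at 0.023 and 0.025, Hoxd at 0.015 and 0.064, and Hoxa at -0.035 and -0.029. None of their 15 windows had an unadjusted edgeR p under 0.05. Their listed pairs summed to 2288 at T0 and 2075 at T6, a ratio of 0.907 against 0.845 over all autosomal pairs.

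Of the 7 pluripotency loci, 5 were lower in both replicates and 1 was higher. Pou5f1, the Oct4 gene, was at a CPM of 78.3 and 68.0 at T0 and 70.4 and 62.2 at T6 (log2 -0.15 and -0.13), and the 2 times overlap. Lefty1 and Lefty2, inhibitors of Nodal, were at 280.0 and 296 at T0 and 256 and 272 at T6 (log2 -0.13 and -0.12). Sall4 was at -0.055 and -0.14, Nanog with Dppa3 and Gdf3 at -0.022 and -0.060, and Esrrb at -0.059 and -0.020. Klf4 was at -0.0060 and 0.096. None of the 22 windows of the group had an unadjusted p under 0.05.

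Sox2, a factor of pluripotent and neural cells, was the locus of that group that was higher, at a CPM of 79.4 and 77.8 at T0 and 83.98 and 86.6 at T6 (log2 0.081 and 0.15). It held the only bin of the 31 loci past log2 1 in both replicates. That bin, from 34,590,001 to 34,595,000 of chromosome 3, held 1.65% and 1.86% of the count of the locus at T0 and 4.76% and 5.41% at T6 (log2 ratio of the bin 1.65, SE 0.22, edgeR adjusted p = 1.00), all from its pair with the next bin.

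Among the 7 neural loci, Pou3f2, Otx2 and Gbx2 were higher and Sox1 lower in both replicates, and Pax6, Zic1 with Zic4, and Olig1 with Olig2 had opposite signs in the replicates. Pou3f2, a neuronal POU factor, was at 24.65 and 24.7 at T0 and 26.7 and 26.8 at T6 (log2 0.11 and 0.12). Gbx2, a factor of the hindbrain border, was at 0.34 in replicate 1 and 0.065 in replicate 2. Its bin from 91,880,001 of chromosome 1 had 206 and 119 at T0 and 493 and 112 at T6, again a difference of replicate 1. In the endoderm group, Gata6 was at 77.5 and 75.3 at T0 and 84.4 and 83.2 at T6 (log2 0.12 and 0.14), and its window from 11,100,001 to 11,150,000 of chromosome 18 was at 0.21 (SE 0.067, edgeR adjusted p = 1.00). Foxa2 was at 0.074 and 0.060, Gata4 at -0.0042 and 0.00043, and Sox17 at -0.011 and 0.042.

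**Figure D5:**
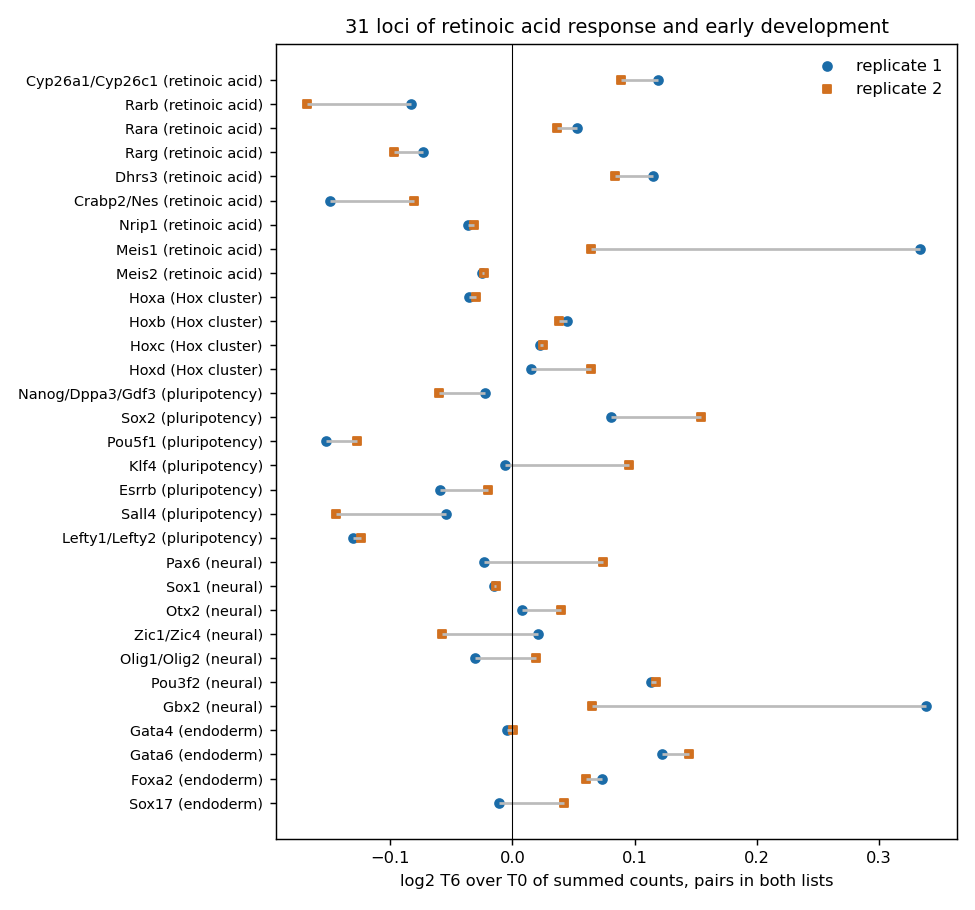
The log2 ratio of T6 over T0 of the summed counts of pairs listed at both times in 31 loci, for replicate 1 (circles) and replicate 2 (squares), with a line joining the replicates. Most loci lie within 0.17 of 0, and Meis1 and Gbx2 stand out in replicate 1 alone.

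The 5 largest relative gains of listed pairs per 1 Mb lay on chromosomes 13 and 14, and the 5 largest losses on chromosomes 1, 7, 4 and 8. The interval of chromosome 13 from 66,000,001 to 67,000,000 went from 322 to 410 pairs, a log2 ratio of 0.59 after scaling to the lengths of the lists. Over the 2395 intervals of 1 Mb the 5th and 95th percentiles were -0.13 and 0.13. The other 4 largest gains were on chromosome 14, from 43,000,001, 44,000,001, 109,000,001 and 110,000,001. On chromosome 1 the interval from 15,000,001 had the lowest ratio, with 612 and 393 pairs (log2 -0.39), and the interval after it had the fifth, with 814 and 563 (log2 -0.288). Between them came chromosome 7 from 7,000,001 with 160 and 107 pairs (log2 -0.335), chromosome 4 from 142,000,001 with 919 and 633 (log2 -0.294) and chromosome 8 from 111,000,001 with 855 and 591 (log2 -0.289). The counts of pairs listed at both times differed less. They gave log2 ratios of 0.19 and 0.11 in the chromosome 13 interval and 0.013 and -0.091 in the chromosome 1 interval from 15,000,001. On chromosome 14 the ratios were 0.33 and -0.0037, 0.13 and 0.059, -0.085 and 0.017, and -0.055 and 0.087, in order of position. Signs also differed between replicates on chromosomes 7 and 8. In the chromosome 13 interval replicate 2 held the larger count, 6800 against 2517 at T0, although its library sum was smaller. The same held from 43,000,001 and 44,000,001 of chromosome 14.

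The bins with the largest relative gain of partners had almost none at T0. On chromosome 14, the bin from 113,440,001 went from 0 to 27 partners, with a median distance of 310 kb. On chromosome 18, the bin from 45,540,001 went from 24 to 0. Of the 10 bins named for their gain or loss of partners, 4 gained them from 0 and 5 lost them to 0, and 4 of the 5 gains were on chromosome 14. Their pairs lay near the listing limit, with median counts of 1.00 to 1.40 times the lowest listed. For the anchors described above this multiple was not taken, and their shared pairs hold counts at both times by definition. Low counts occurred there too, such as 5 and 4 at T0 in the pair of 230 kb of the chromosome 1 bin from 67,170,001.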

How the data were processed

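Per the file headers, the authors deposited raw counts of read pairs per library for pairs of 5 kb bins that their series text calls significant in both replicates. Per the submitters' processing notes, CASAVA 1.8.2, Bowtie2 and build mm9 were used. The restriction enzyme, the interaction caller and its threshold are not given in the sources used here. Samples were grouped by their titles. Counts of pairs listed at T0 and T6 were tested singly, and summed per 50 kb window (a pair inside 1 window counted once) and per 5 kb bin, with edgeR 4.0.16 in R 4.3.3 (TMM, filterByExpr, quasi-likelihood test, two-sided, Benjamini-Hochberg). The alternatives were DESeq2 1.42.0, other filters and units, distance offsets, a replicate block, and fits with each library left out. Chromosome X entered the fits and was not reported, and mitochondrial pairs were left out. The fits were run on simulated counts that spread less than these data and had no difference shared by a replicate number. That run cannot show how the fits perform on these data. A stricter list kept pairs whose counts reached 1.5 times the lowest listed one of that distance. Named items were those with the lowest p and 1 sign in both replicates (10 windows, 10 bins and 6 pairs each way, 1 per 500 kb), the 5 largest gains and losses of listed pairs per 1 Mb (at least 200 pairs) and of partners per bin (at least 20), the distance classes, the autosomes and the 31 loci. The names of the loci are working names, and 41 of 41 symbols stood on the same chromosome in RefSeq's GRCm38.p6 table. Members, lists and loci were chosen with earlier results of these data known.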

Additional observations from a re-analysis of the deposited data

How the results depend on the processing

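In edgeR, 0 pairs, 0 windows and 0 bins were called in the fits without a replicate block, also with any of the 4 libraries left out (0 to 0). DESeq2 called 29 windows and 68 bins, with 0 pairs. The replicate numbers were not taken to pair the samples, since there are only 2 and no label says what they share. Replicate differences correlated between T0 and T6 at 0.389 over pairs, 0.811 over windows and 0.633 over bins. The main fit leaves that shared part in its error, while the log2 ratios per replicate are taken within replicate number. With the replicate block edgeR called 1 pair, 108 windows (68 higher, 40 lower) and 90 bins (52 higher, 38 lower). Among them were all 20 named windows (adjusted p up to 0.0022) and all 20 named bins (up to 0.00025). None of these passed in edgeR without the block. The block leaves 1 residual degree of freedom, against 2 in the main fit. The named items were chosen by lowest p on the same counts, so these calls and those of DESeq2 are not separate evidence. With the block and distance offsets edgeR called 1 pair and 49 windows. The called pair lies on chromosome 2, outside the named pairs.

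The list share of long pairs (-0.168 percentage points) was 0.182 in the stricter list, 0.523 from 250 kb, -0.016 from 1 Mb and 0.0011 among pairs at least 20 kb apart. Their count share (0.083) was 0.165 over all listed counts, 0.157 from 250 kb and 0.295 among pairs at least 20 kb apart. It was 0.111 in the stricter pairs and 0.057 without the chromosome 1 interval, both added after the data were seen, and 0.039 to 0.128 with a replicate number left out. The overlap (40.5% of the T0 list) was 45.8% in the stricter list, 28.01% from 20 kb and 68.1% with anchors within 1 bin.

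Named pairs and bins kept their sign in all alternatives run. They were chosen by lowest p and 1 sign in both replicates, and the alternatives refit the same libraries. The kept sign thus largely follows from the choice. Of the locus windows, 8 reversed: Pou3f2 at -0.022 without T0 replicate 1 (-0.022 to 0.31 with any library left out), Gata4 at 0.019 (-0.067 to 0.019) and Sox17 at -0.0084 (-0.0084 to 0.088) without T6 replicate 2, and with pairs from 20 kb Rara at -0.011, Nrip1 at 0.12, Klf4 at -0.32, Pax6 at -0.10 and Zic1 at 0.077. The cause was not tested. Low counts per pair limit what single pairs can show.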
